A study of Homo sapiens with 3 samples.

Results

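The epidermal growth factor receptor (EGFR) family was followed through 8 genes: the ligands EREG, HBEGF, TGFA and BTC, the receptors EGFR, ERBB2 and ERBB3, and the inhibitor ERRFI1. The genes were chosen with earlier results of these data known. Their probe sets were taken by gene symbol alone, from those that the platform annotation paired with exactly 1 symbol. This gave 29 probe sets for the 8 genes among 41097 probe sets for 19775 genes. Each probe set is shown, and a gene's value is the median of its probe sets, which read the same RNA and are not replicates. A gene's difference between arrays is the median of its probe sets' differences, which need not equal the difference between its median values.

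Expression was measured on Affymetrix HG-U133 Plus 2 arrays in MDA-MB-231, an established human breast cancer line usually classed as triple negative, without oestrogen receptor alpha, progesterone receptor or ERBB2 amplification. The vehicle culture received 0.1% ethanol for 3 h, the estradiol culture received 1 µM of this oestrogen for 3 h, and the ERα17p culture received 1 µM of this peptide of the oestrogen receptor alpha for 3 h. Before treatment all 3 cultures spent 4 h in 10% charcoal-stripped serum, a serum depleted of steroids. There was 1 array in each of the 3 groups, so no difference has a replicate check and none was tested. The labels give no solvent for estradiol or ERα17p.

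Ligands of this family are made as membrane-anchored precursors and are released by proteases of the ADAM family. They bind the extracellular part of EGFR, ERBB3 or ERBB4, which then pair with each other or with ERBB2 and signal through the RAS-ERK and PI3K pathways. Signalling induces genes that limit it, among them ERRFI1, and several ligands are themselves induced by ERK activity, so that the ligand genes are both inputs and outputs of the pathway. In breast cancer the family is best known through ERBB2 amplification, while basal and mesenchymal-like lines are known more for EGFR.

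Values are log2 values that the authors had centred for each probe set at a level of unknown origin, so that 0 is that reference and not an absence of transcript. A level, a signal over background or a comparison of abundance between genes cannot be given, and the mesenchymal-like identity of the line could not be checked against absolute marker levels. Only differences between arrays are read below, and the threshold for calling a gene higher or lower was 1.5-fold, a log2 difference of 0.585. In a culture profiled in bulk, fewer cells that express a gene and less transcript per cell cannot be told apart.

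The vehicle array stood apart from both treated arrays, which bears on each comparison with it. The standard deviation of its values was 0.494, against 0.260 and 0.241 on the estradiol and ERα17p arrays. Bacterial spike transcripts added before labelling read 2.03 and 2.04 higher on the treated arrays (median of 27 probe sets), and spikes added at hybridisation read -0.74 and -0.93 (18 probe sets); between the treated arrays these medians were 0.0029 and -0.15. The 3′ minus 5′ value of ACTB, a sign of RNA quality, differed from vehicle by -0.38 with estradiol and 0.20 with ERα17p, and so by 0.58 between the treated arrays; for GAPDH it differed by 0.09 between them. Their part in the members' differences was not tested. After the comparisons with vehicle, the members and the gene lists are also given relative to the deposited reference, which leaves the vehicle array out of the subtraction although that array may have helped to set the reference.

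**Figure D1:**
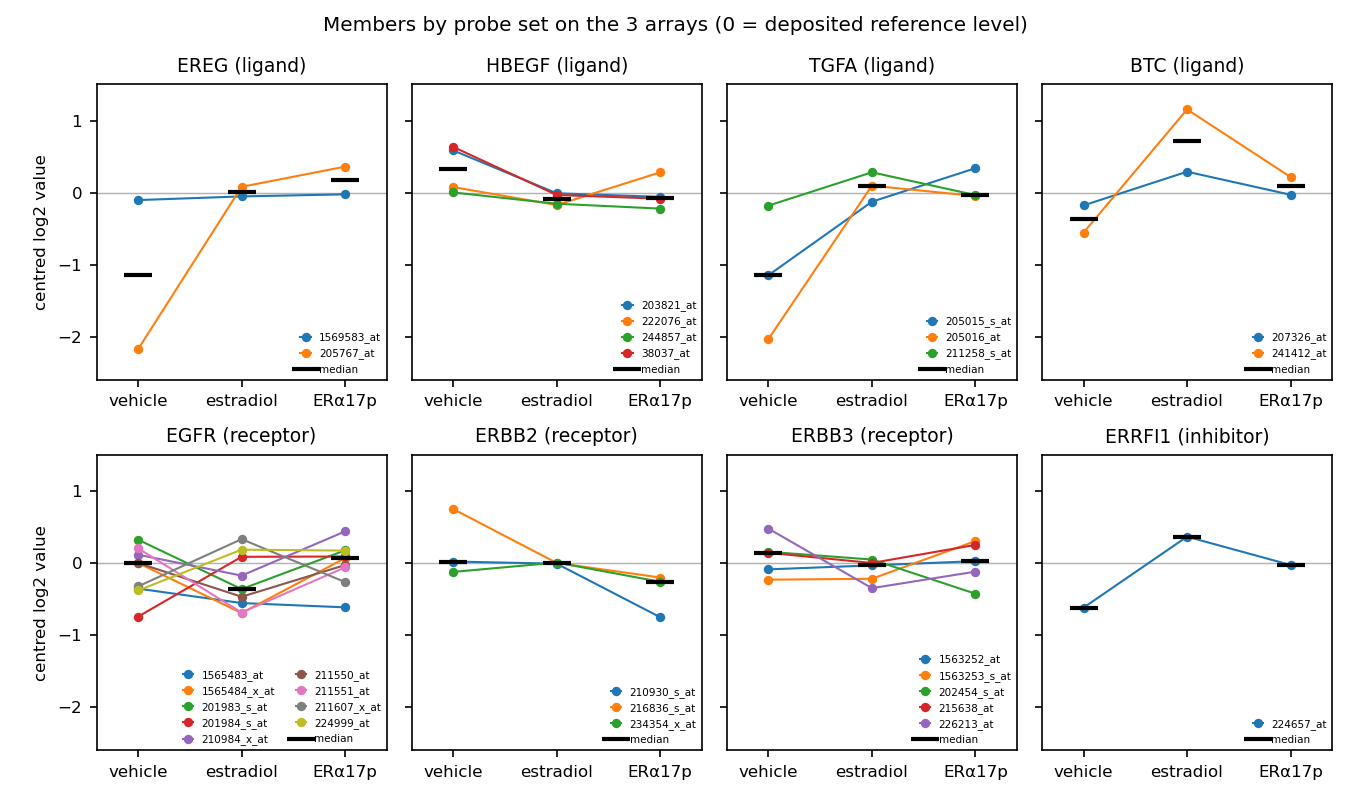
Centred log2 value of each probe set (coloured points, lines join the same probe set) and the gene median (black bar) for vehicle, estradiol and ERα17p, 1 array each. The vehicle values of -2.17 for an EREG probe set and -2.03 for a TGFA probe set stand below all other points, whereas the 9 EGFR probe sets cross.

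Among the ligands, EREG, TGFA and BTC were higher than vehicle on both treated arrays in every probe set, and HBEGF was lower in most. EREG encodes epiregulin, a ligand of EGFR and ERBB4. Its probe set 205767_at, which the annotation pairs with the RefSeq messenger RNA, stood at -2.17 with vehicle, 0.08 with estradiol and 0.36 with ERα17p. The vehicle array was the low one, and the treated arrays lay close together. The differences were 2.25 for estradiol (4.77-fold) and 2.53 for ERα17p (5.79-fold), and 0.439% and 0.247% of all 54675 probe sets were at least that much higher.

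The other EREG probe set, 1569583_at, was flat, at -0.10 with vehicle, -0.05 with estradiol and -0.02 with ERα17p. The gene median of EREG was thus 1.15 higher with estradiol and 1.31 higher with ERα17p. Among the 5015 genes with 2 probe sets, 1.08% had probe sets at least as far apart as those of EREG in the estradiol comparison, where the EREG range was 2.20 and the median range 0.37. For ERα17p the share was 0.399%. Without detection calls, whether the flat probe set was above background is unknown.

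TGFA encodes transforming growth factor alpha, a ligand of EGFR. Its probe set 205016_at, paired with the RefSeq messenger RNA, stood at -2.03 with vehicle, 0.10 with estradiol and -0.05 with ERα17p. For 205015_s_at the values were -1.15, -0.13 and 0.34 in the same order. On both probe sets the vehicle array was lowest by at least 1.02. The third, 211258_s_at, varied less, at -0.18, 0.28 and -0.03. TGFA was 1.02 higher with estradiol (2.03-fold, probe sets from 0.46 to 2.13) and 1.49 higher with ERα17p (2.80-fold, probe sets from 0.15 to 1.99). Among all genes, 3.75% and 1.12% were at least as far above vehicle.

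BTC encodes betacellulin, a ligand of EGFR and ERBB4, and was the ligand with the widest gap between the treated arrays. Probe set 241412_at was at -0.56 with vehicle, 1.15 with estradiol and 0.22 with ERα17p. Probe set 207326_at, paired with the RefSeq messenger RNA, was at -0.18, 0.29 and -0.03. Both therefore ranked the arrays alike, with estradiol first, ERα17p next and vehicle last. The gene difference from vehicle was 1.09 with estradiol (2.13-fold, reached or passed by 3.18% of genes) and 0.46 with ERα17p (1.38-fold, 13.5% of genes). The probe set paired with the RefSeq messenger RNA carried the smaller differences, 0.47 and 0.15, which are short of 1.5-fold.

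HBEGF encodes heparin-binding EGF-like growth factor, a ligand of EGFR and ERBB4, and went the other way. Probe sets 203821_at and 38037_at stood at 0.58 and 0.63 with vehicle, -0.01 and -0.03 with estradiol and -0.06 and -0.08 with ERα17p. These 2 probe sets were past 1.5-fold lower with both treatments, from -0.60 to -0.72. The other probe sets, 222076_at and 244857_at, differed from vehicle by between -0.25 and 0.20. The HBEGF gene median was -0.42 with estradiol and -0.43 with ERα17p, short of 1.5-fold, and 14.2% and 14.0% of genes were at least as far below vehicle.

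The 250 bases upstream of the annotated start are shown for EREG and TGFA, the members farthest above vehicle in the mean of both treatments, and for HBEGF, the ligand below it. They were read from RefSeq (GRCh38.p14), where 7 of the 8 members had an entry, in 9 windows. TGFA and EGFR each have 2 annotated starts; for TGFA the window listed first is shown, and the other held none of the searched motifs. Capitals mark the searched motifs on either strand: the oestrogen receptor half-site AGGTCA, the palindrome of GGTCA and TGACC with any 3 bases between, the AP-1 site TGANTCA, the CRE site TGACGTCA, the Sp1 site GGGCGG, the CArG box of serum response factor, the TATA box TATAAA and the TEAD site GGAATG. The half-site AGGTCA overlaps the outer bases of the palindrome.
EREG upstream region, chr4:74364895-74365144, plus strand: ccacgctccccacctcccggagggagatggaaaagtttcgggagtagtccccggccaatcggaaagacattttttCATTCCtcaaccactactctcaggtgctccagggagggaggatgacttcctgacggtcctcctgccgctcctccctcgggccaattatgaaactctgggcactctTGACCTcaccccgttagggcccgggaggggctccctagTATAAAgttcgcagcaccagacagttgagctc
TGFA upstream region, chr2:70553827-70554076, minus strand: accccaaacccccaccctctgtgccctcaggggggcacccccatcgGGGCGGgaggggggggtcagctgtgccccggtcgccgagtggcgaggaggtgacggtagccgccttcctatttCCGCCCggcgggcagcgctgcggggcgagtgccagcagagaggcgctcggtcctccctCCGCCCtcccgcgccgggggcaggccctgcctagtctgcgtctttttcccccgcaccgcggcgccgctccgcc
HBEGF upstream region, chr5:140346604-140346853, minus strand: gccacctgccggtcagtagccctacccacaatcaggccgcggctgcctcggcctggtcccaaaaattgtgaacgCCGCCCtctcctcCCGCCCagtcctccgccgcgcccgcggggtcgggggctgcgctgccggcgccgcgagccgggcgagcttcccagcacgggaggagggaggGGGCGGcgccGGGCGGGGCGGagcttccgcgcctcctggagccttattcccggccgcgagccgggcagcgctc

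The upstream region of EREG differed in composition from the others, with 58.0% G and C against 75.6% for TGFA and 76.4% for HBEGF. It held an AGGTCA half-site on the opposite strand 70 to 65 bases before the start, TATAAA at 32 to 27 bases, and GGAATG on the opposite strand at 175 to 170 bases. Of 35116 RefSeq upstream windows of 250 bases, 12.1% held AGGTCA, 10.7% TATAAA and 11.9% GGAATG. The windows shown for TGFA and HBEGF held 3 and 5 matches to GGGCGG, a motif of 42.6% of windows. Across the members AGGTCA was found in 1 gene, EREG, and TGANTCA in 2, ERBB2 and the downstream of the 2 EGFR starts (6.57% of windows). The oestrogen response palindrome was in 0 of the members' windows and in 0.0399% of all windows, TGACGTCA in 1.65% and the CArG box in 1.16%. A match describes these letters only.

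Among the receptors only ERBB2 passed 1.5-fold by the median of its probe set differences, as lower with ERα17p. Probe sets of EGFR and ERBB3 went in both directions. EGFR, the receptor that binds all 4 ligands, had 9 probe sets. On 201984_s_at, paired with the RefSeq messenger RNA, it stood at -0.75 with vehicle, 0.09 with estradiol and 0.09 with ERα17p, and on 224999_at at -0.38, 0.18 and 0.17. These 2 probe sets were higher with both treatments, by 0.83 and 0.57 with estradiol and by 0.84 and 0.55 with ERα17p. On 211551_at, in contrast, EGFR stood at 0.20, -0.69 and -0.06, and on 201983_s_at at 0.32, -0.36 and 0.17, which puts the estradiol array lowest.

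With estradiol, 3 EGFR probe sets were above vehicle and 6 below, from -0.89 to 0.83, and the gene median was -0.29. For ERα17p the split was 5 above and 4 below, from -0.26 to 0.84, with a median of 0.06. The direction for EGFR thus depends on the probe set. Such a spread was common for a gene with this many probe sets: 46.7% of the 30 genes with 9 probe sets had a range at least as wide as the 1.72 of EGFR in the estradiol comparison.

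ERBB2 encodes the receptor with no known ligand of its own, the preferred partner of the others. Its probe set 216836_s_at stood at 0.75 with vehicle, 0.00 with estradiol and -0.20 with ERα17p. For 210930_s_at the values were 0.02, -0.01 and -0.75, so that the ERα17p array alone was low, and for 234354_x_at they were -0.12, 0.01 and -0.26. In each of the 3 probe sets the ERα17p array had the lowest value. The median of the ERBB2 differences was -0.77 with ERα17p (1.71-fold lower, probe sets from -0.95 to -0.14), reached or passed by 4.99% of genes. With estradiol it was -0.03 (probe sets from -0.75 to 0.13). The call depends on this order of steps: the median ERBB2 values, 0.02 with vehicle and -0.26 with ERα17p, lie less than 1.5-fold apart.

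ERBB3 encodes the neuregulin receptor with a weak kinase, which recruits PI3K. Its probe set 226213_at stood at 0.48 with vehicle, -0.35 with estradiol and -0.12 with ERα17p. On 202454_s_at, paired with the RefSeq messenger RNA, the values were 0.16, 0.05 and -0.43. The other 3 probe sets of ERBB3 differed from vehicle by between -0.14 and 0.54. The gene median was -0.11 with estradiol and 0.11 with ERα17p, and the 5 probe sets ranged from -0.83 to 0.05 and from -0.60 to 0.54. The direction with ERα17p depends on the summary: the mean of the probe sets was -0.08 and the RefSeq-paired probe set alone -0.58, both below vehicle as with estradiol. The median ERBB3 values, 0.14 with vehicle and 0.03 with ERα17p, also put vehicle higher.

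ERRFI1 encodes MIG6, which binds the kinase domain of the receptors, blocks their activation and is induced by their signalling. It was measured by a single probe set, 224657_at, at -0.62 with vehicle, 0.37 with estradiol and -0.03 with ERα17p. Vehicle was lowest and estradiol highest, the order seen for BTC. The difference from vehicle was 0.99 with estradiol (1.98-fold) and 0.59 with ERα17p (1.51-fold, just past the threshold). Among all genes, 4.09% and 9.39% were at least as far above vehicle.

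Counted over genes, 4 of the 8 members were at least 1.5-fold higher with estradiol (EREG, TGFA, BTC and ERRFI1) and 0 were lower. Over all 19775 genes, 10.6% were higher and 8.42% lower in that comparison. With ERα17p 3 of 8 were higher (EREG, TGFA and ERRFI1), beside 9.56% of all genes, and 1 of 8, ERBB2, was lower, beside 8.82% of all genes. The median of the 8 differences was 0.48 for estradiol and 0.28 for ERα17p, against 0.0022 and 0.0021 over all genes. Both comparisons use the same vehicle array, so the members shared between them are not separate observations. The members were also chosen with earlier results of these data known. Their counts beside the share of all genes are therefore no independent evidence.

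By probe set the members lay on both sides of vehicle. With estradiol 7 of the 29 probe sets passed 1.5-fold upward and 7 downward, beside 14.1% and 11.4% of the 41097 probe sets with 1 symbol. With ERα17p 6 were higher and 5 lower, beside 13.1% and 11.0%. The members called higher rest on 1 or 2 probe sets each, while the lower probe sets belong to HBEGF and the receptors. EGFR also had probe sets past 1.5-fold upward, 2 with estradiol and 1 with ERα17p.

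**Figure D2:**
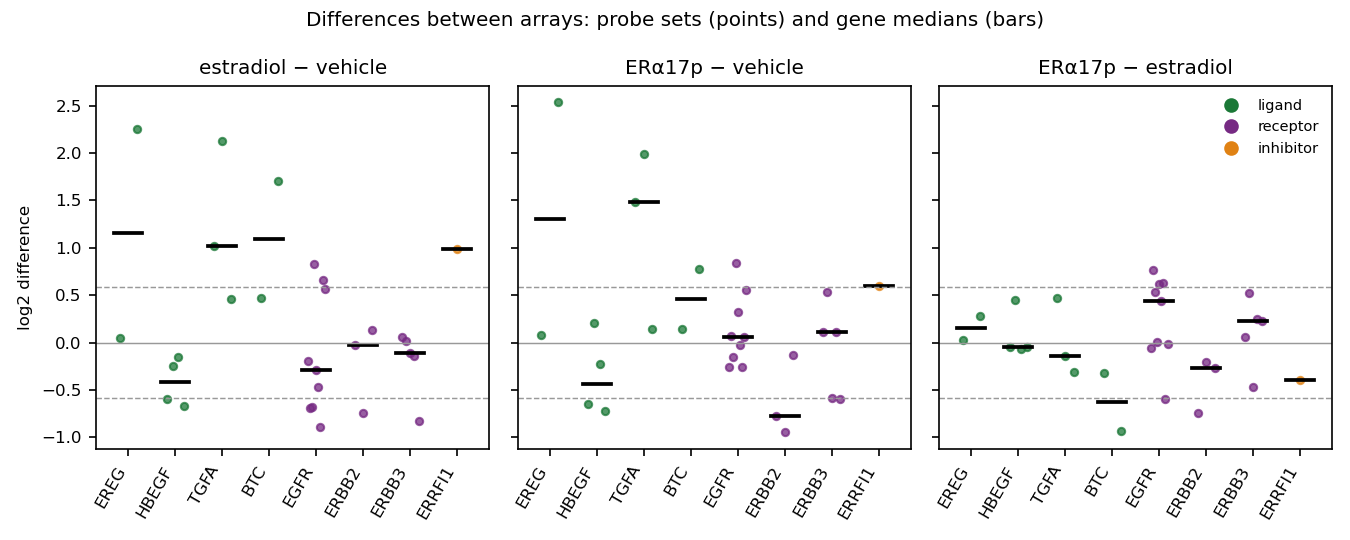
Log2 differences between arrays for each probe set (points, coloured by role) and the gene median (black bars), with 1.5-fold marked by dashed lines. Ligand points reach 2.25 and 2.53 in the comparisons with vehicle, and in the direct comparison of the treated arrays the gene medians lie between -0.63 and 0.44.

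With the reference level used instead of vehicle, most of these differences were small. EREG was then at 0.01 with estradiol and 0.17 with ERα17p, TGFA at 0.10 and -0.03, and ERRFI1 at 0.37 and -0.03. ERBB2 was at 0.00 and -0.26, HBEGF at -0.09 and -0.07, EGFR at -0.36 and 0.07, and ERBB3 at -0.03 and 0.03. BTC, at 0.72 and 0.09, was the 1 member past 1.5-fold, on the estradiol array. Calls were rare among all genes on this scale too. With estradiol 1.28% of them were higher and 0.516% lower, and with ERα17p 0.496% and 0.632%. On this scale the vehicle array was the one far from 0 for EREG (-1.14) and TGFA (-1.15), and the calls for EREG, TGFA and ERRFI1 were not met without it. EREG was also smaller after quantile normalisation of the 3 arrays, at 0.70 with estradiol, and TGFA at 0.61, both still past 1.5-fold. ERRFI1 with ERα17p was then at 0.42, and at 0.38 with the arrays scaled to equal standard deviation, both short of 1.5-fold, which left 2 members higher with ERα17p.

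**Figure D3:**
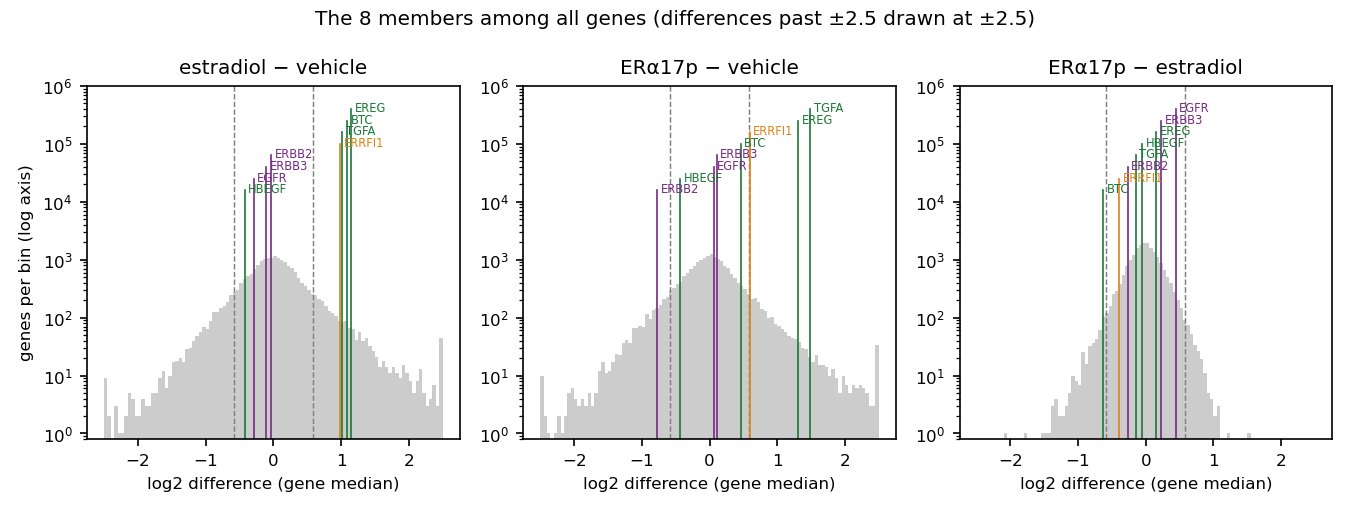
Distribution of the gene differences over 19775 genes (grey, log axis for the number of genes per bin) with the 8 members marked and 1.5-fold as dashed lines. EREG, TGFA, BTC and ERRFI1 lie in the upper tail for estradiol, EREG and TGFA in that for ERα17p, and in the direct comparison BTC alone is past a dashed line.

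Set directly against each other, with the vehicle array left out, the treated arrays differed by 1.5-fold or more in 1 member. BTC was 0.63 lower on the ERα17p array (1.55-fold, probe sets at -0.94 and -0.32), and was the 1 of 8 members past 1.5-fold lower, beside 2.04% of all genes. On the higher side 0 of 8 members passed, beside 1.29% of all genes, and the largest was EGFR at 0.44, with 6 of 9 probe sets above 0 and 3 below. On 201984_s_at and 224999_at the EGFR difference was 0.0046 and -0.01. Past 1.5-fold, 3 EGFR probe sets were higher: 1565484_x_at at 0.76, 211551_at at 0.63 and 210984_x_at at 0.61. The 1 EGFR probe set past it downward was 211607_x_at at -0.60. Of the members' 29 probe sets 3 were higher and 3 lower, beside 3.61% and 3.27% of the probe sets with 1 symbol.

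ERRFI1 was at -0.39 and ERBB2 at -0.27 in the direct comparison, the latter with all 3 probe sets below 0, from -0.74 to -0.20. EREG was at 0.15, TGFA at -0.14, HBEGF at -0.05 and ERBB3 at 0.23. EREG and TGFA thus differed by 1.11-fold and 1.10-fold between the treatments. The TGFA median rests on 205016_at here, whereas 205015_s_at, the median probe set in both comparisons with vehicle, was at 0.47. The median over the 8 members was -0.10, against -0.01 over all genes.

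The rest of the pathway was followed in gene lists. Among the other ligands of the family, 5 of 7 had a probe set with 1 symbol, which did not include AREG and EPGN, the genes on either side of EREG in the RefSeq order. EGF was 0.87 higher with estradiol and 0.49 with ERα17p (vehicle -0.28, estradiol 0.58, ERα17p 0.21), and was the 1 of 5 past 1.5-fold with estradiol. With ERα17p 0 of 5 passed. The shares of all genes past 1.5-fold upward were 10.6% with estradiol and 9.56% with ERα17p. NRG2, NRG3 and NRG4, neuregulin ligands of ERBB3 or ERBB4, were between -0.28 and 0.32 by gene median, although NRG2 probe sets reached -0.94 with estradiol. The remaining 1 of the 5 was at -0.02 and -0.13. Its 6 probe sets ranged from -0.645 to 0.686 with estradiol and from -0.413 to 0.723 with ERα17p. The remaining receptor, ERBB4, differed from vehicle by 0.33 and 0.19.

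Of 10 genes that act in ligand shedding, 4 passed 1.5-fold upward and 0 downward with each treatment, with medians of 0.46 and 0.48. Of all genes, 10.6% passed upward with estradiol and 9.56% with ERα17p, and 8.42% and 8.82% downward. ADAM10, a protease that releases EGF and BTC, was 1.28 and 1.43 higher, its 3 probe sets between 0.50 and 3.01. ADAM9, a related protease, was 1.06 and 1.09 higher. RHBDF2, which escorts the protease ADAM17 to the cell surface, was 0.83 and 0.68 higher. TIMP3, an inhibitor of ADAM17, was 0.78 and 0.54 higher, the latter short of 1.5-fold, with probe sets from -0.17 to 1.93 with estradiol. Another listed gene was thus among the 4 called with ERα17p. ADAM10 and ADAM9 were lowest on the vehicle array, at -1.28 and -0.97, with both treated arrays between 0.00 and 0.37.

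Of 18 receptor adaptors and turnover genes, 6 were higher and 1 lower with estradiol, and 6 higher and 2 lower with ERα17p, with medians of 0.34 and 0.32. Beside these counts, 10.6% of all genes were higher and 8.42% lower with estradiol, and 9.56% and 8.82% with ERα17p. EPS8 and EPS15, receptor substrates that act in actin remodelling and endocytosis, were 1.33 and 1.31 higher with estradiol and 1.07 and 1.19 higher with ERα17p. LRIG3, a membrane protein of the LRIG family, was 1.01 and 1.43 higher. HGS, which sorts ubiquitinated receptors towards lysosomes, was the lowest at -1.35 and -1.28, and its value on the vehicle array was 1.25.

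By sign alone, the relay genes of the RAS-ERK and PI3K pathways lay mostly below vehicle, some of them close to 0, while calls past 1.5-fold fell on both sides. Of 20 listed, 11 had a probe set with 1 symbol. Of these, 9 had a difference below 0 and 2 above with estradiol, and 7 below and 4 above with ERα17p (medians -0.22 and -0.06). The median over all genes was 0.0022 and 0.0021. Those below 0 came as near to it as -0.0039 with estradiol and -0.015 with ERα17p. The typical spread of probe sets within a gene was 0.33 and 0.32. Past 1.5-fold, 2 were higher and 1 lower with estradiol and 2 higher and 2 lower with ERα17p. The shares over all genes were 10.6% higher and 8.42% lower with estradiol and 9.56% and 8.82% with ERα17p. The kinase gene MAP2K1 was 0.74 and 0.77 higher, and ARAF 0.60 and 0.67 higher with probe sets on both sides of 0. HRAS was at -0.71 and -0.76, and PLCG1, a phospholipase that binds activated receptors, at -0.48 and -0.61.

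Genes whose transcripts are commonly read as output of ERK activity had 5 of 10 higher and 1 lower with estradiol, and 5 higher and 0 lower with ERα17p (medians 0.56 and 0.51). Of all genes, 10.6% were higher and 8.42% lower with estradiol, and 9.56% and 8.82% with ERα17p. The feedback regulators DUSP6, SPRY2 and SPRY4 were 1.07, 1.08 and 0.79 higher with estradiol and 1.11, 1.33 and 0.80 higher with ERα17p. CCND1, the cyclin D1 gene, was at -0.89 and -0.46. The labelling spikes were 2.03 and 2.04 above vehicle beside all of these lists. In the direct comparison 0 of the 10 shedding, 0 of the 18 adaptor and 0 of the 10 output genes passed 1.5-fold, and of the relay genes 1 was higher, with medians between -0.05 and 0.06. In that comparison 1.29% of all genes were higher and 2.04% lower.

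**Figure D4:**
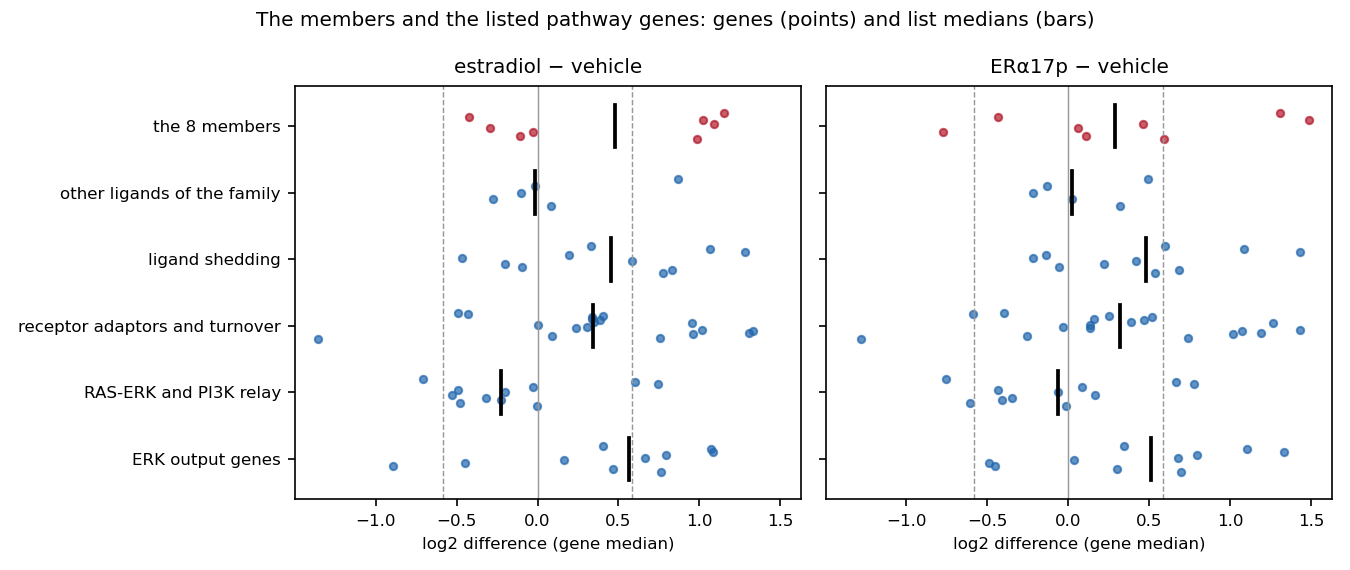
Log2 difference from vehicle (gene median of probe sets) for the 8 members and the listed pathway genes, with list medians as black bars and 1.5-fold as dashed lines. Points of the shedding, adaptor and ERK output lists lie mostly above 0 for both treatments, with list medians between 0.32 and 0.56. The relay genes lie mostly below 0, some of them close to it, with medians of -0.22 and -0.06.

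Markers of breast cell states moved with the ligands in part. Beside the counts below, 10.6% of all genes were higher and 8.42% lower with estradiol, and 9.56% and 8.82% with ERα17p. Of 10 markers of mesenchymal-like breast lines, 3 were at least 1.5-fold higher with estradiol and 4 with ERα17p, and 0 were lower (medians 0.32 and 0.41); SNAI2, a transcription factor of the mesenchymal state, was 1.84 and 2.08 higher. The 3 markers below vehicle with both treatments, named after their values were seen, were VIM at -0.23 and -0.17, CDH2 at -0.20 and -0.08 and AXL at -0.10 and -0.22. Of 10 luminal epithelium markers 1 was higher and 1 lower with estradiol, and 0 higher and 1 lower with ERα17p (medians 0.11 and 0.04), with KRT18 at -0.84 and -0.87 and EPCAM at 0.78 and 0.43. The part of these shifts in the members' differences was not tested.

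Relative to the deposited reference in place of vehicle, 0 of the 75 measured genes of these pathway and marker lists passed 1.5-fold in either direction on either treated array, beside 22 higher and 4 lower than vehicle with estradiol and 21 and 5 with ERα17p. Their values on the treated arrays ranged from -0.43 to 0.58 with estradiol and from -0.29 to 0.58 with ERα17p. SNAI2 was at 0.01 and 0.25, SPRY2 at 0.00 and 0.25 and MAP2K1 at 0.12 and 0.16. Of all genes, 1.28% were higher and 0.516% lower than the reference with estradiol, and 0.496% and 0.632% with ERα17p.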

How the data were processed

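RMA, with no version, is named in the submitters' processing notes. The deposited values were taken as log2 because RMA gives that scale; the log base, the genome build and the reference level on which the authors centred each probe set are not given in the sources used here. Of 54675 probe sets, 41097 had 1 symbol in the platform annotation, 1801 several and 11777 none; the 8 members were found in RefSeq (GRCh38.p14) by Entrez identifier, with 0 symbols differing. Probe set values were subtracted between arrays and summarised by the median per gene, and genes were called at 1.5-fold, with 1 array per group and no test. The number of arrays limits the precision.

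Members and lists were chosen with earlier results of these data known. All members were named, with at most 4 genes per list, those farthest from vehicle, and the 3 genes nearest to each of the 2 members farthest from vehicle. The alternatives were 2-fold, agreement of probe sets, the mean of probe sets, other probe sets, scaling and the reference level. Python 3.11.15, NumPy 2.4.6 and pandas 2.3.3 were used. The calls were tried on simulated data with a constant vehicle array, which cannot speak to the wide spread of the real one.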

Additional observations from a re-analysis of the deposited data

How the results depend on the processing

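With 1 array per group no replicate could be left out. No paired analysis was possible because each group has 1 array. Against the reference level 1 member was higher with estradiol and 0 with ERα17p, beside 1.28% and 0.496% of all genes. With ERα17p 0 were lower, beside 0.632% of all genes. The median over the members was 0.0065 with estradiol and -0.0011 with ERα17p. TGFA and ERRFI1 changed sign with ERα17p, to -0.035 and -0.028. Of the 75 listed genes 0 were then higher or lower with either treatment, an alternative chosen after seeing the data. Probe sets ending in _s_at, _x_at or _a_at were also left out, which removes all of ERBB2. The estradiol median of the 7 remaining members was then 0.99, and 0 were lower with ERα17p, beside 8.84% of all genes. At 2-fold, 0 were lower with ERα17p in either comparison, and the share of all genes at that threshold was not counted. The next setting kept only probe sets paired with a RefSeq messenger RNA, was chosen after seeing the data and covered 6 members. In the direct comparison 0 of 6 were lower, beside 2.85% of all genes. With estradiol 1 of 6, HBEGF (-0.60), was lower, beside 10.6% of all genes. With ERα17p HBEGF (-0.64) took the place of ERBB2, which has no such probe set, as the 1 lower, beside 10.9%. EGFR was then 0.83 and 0.84 above vehicle. The cause was not tested. Against the reference level the ERα17p median was not kept: it fell from 0.28 to -0.0011 and changed sign. The remaining counts and medians kept within 1.5 times their value, or moved by less than the typical spread of a gene's probe sets. That spread, 0.32 with ERα17p, describes probe sets within a gene. It does not measure the uncertainty of a median over members or of a change of baseline. Without detection calls, signal over background sets no limit that can be given.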

Other observations

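EREG and BTC lie in a cluster of ligand genes in the RefSeq order. The genes next to them had no probe set with 1 symbol here. The nearest measured genes, named after their values were seen, were the non-coding LOC105377276, whose annotated span overlaps that of EREG, and PARM1 on the far side of BTC. LOC105377276 was 1.87 higher with estradiol and 1.61 higher with ERα17p (1 probe set), and PARM1 0.98 and 1.10 higher (2 probe sets).

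The genes whose pair of differences from vehicle lay nearest to that of TGFA were LRIG3 (distance 0.058), TRIB2 (0.063) and ATP2B1 (0.067), over 3 arrays. Nearest to EREG were ZYG11B (0.015), C3 (0.019) and HEATR5A (0.030). Within a distance of 0.1 there were 7 genes for TGFA and 39 for EREG, so with 3 arrays such nearness is easily met. Probe sets of different ligands also ran alike: 211258_s_at of TGFA stood at -0.18 with vehicle, 0.28 with estradiol and -0.03 with ERα17p, and 207326_at of BTC at -0.18, 0.29 and -0.03.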
